A study of Arabidopsis thaliana with 4 samples.

Results

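The regions described here were 590 introns of Arabidopsis thaliana that carried deep read coverage in every column of the deposited intron score table. They were chosen by their measured values: each had a score of at least 250 in all 4 score columns and a length under 500 bases, which 590 of the 79373 introns of the table met. The 590 introns lay in 448 host genes. The tested libraries came from whole seedlings, 7 days old, labelled as a MAC3B mutant with the substitutions Q77A and D81A and a GFP tag (2 libraries, replicates 1 and 3). The comparison libraries came from Col-0 wild-type seedlings of the same age (2 libraries, replicates 1 and 2). The growth medium was Murashige and Skoog with added sucrose, and no treatment is named. The promoter of the tagged gene, the background it was placed in and a line with an unmutated tagged MAC3B were not given in the sources used here. The labels do not say whether libraries of a genotype were grown separately, so p-values here speak only of the variation among these 4 libraries, which may be technical.

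Introns are removed from plant transcripts by the spliceosome, which recognises a 5′ end that is nearly always GT and a 3′ end that is nearly always AG. MAC3B and its close copy MAC3A are plant relatives of the yeast splicing factor Prp19; they attach ubiquitin to other proteins and belong to the MOS4-associated complex, which joins the spliceosome. Keeping an intron in the mature RNA is the commonest form of alternative splicing in plants, and such a transcript may be held in the nucleus, degraded or translated differently. Read depth inside an intron can also come from RNA not yet spliced.

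The introns on which the results below turn are shown first, each read 5′ to 3′ on its own strand from the RefSeq copy of the genome (TAIR10.1, in which 99.951% of shared genes had the same span as in the authors' annotation), with the first and last 2 bases in capitals. The first sequence is the intron with the largest mutant deficit. The next are those of the glycine-rich RNA-binding genes GRP7 (its outer 60 bases at each end) and CCR1 (also known as GRP8), which were read almost as deeply as the exons. Then come introns with some of the largest mutant excesses, 1 intron shared letter for letter by 3 genes, and 1 annotated stretch that lacks the usual 3′ end.
AT2G15880 intron 1, chr2:6920171-6920267, minus strand: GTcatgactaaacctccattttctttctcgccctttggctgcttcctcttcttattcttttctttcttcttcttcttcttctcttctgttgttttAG
GRP7 intron 1, first 60 bases, chr2:9266143-9266202, minus strand: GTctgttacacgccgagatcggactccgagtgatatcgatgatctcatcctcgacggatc
GRP7 intron 1, last 60 bases, chr2:9265894-9265953, minus strand: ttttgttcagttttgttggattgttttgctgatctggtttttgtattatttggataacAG
CCR1 intron 1, chr4:18274568-18274850, minus strand: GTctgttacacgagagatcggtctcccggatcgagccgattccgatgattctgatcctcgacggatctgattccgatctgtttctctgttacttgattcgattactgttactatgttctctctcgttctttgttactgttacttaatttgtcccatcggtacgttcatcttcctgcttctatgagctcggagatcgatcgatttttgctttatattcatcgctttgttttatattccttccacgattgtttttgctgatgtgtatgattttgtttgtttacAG
IAA2 intron 1, chr3:8181421-8181512, minus strand: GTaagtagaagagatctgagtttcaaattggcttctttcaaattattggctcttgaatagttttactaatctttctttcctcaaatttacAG
RBCS1B intron 2, chr5:15384590-15384760, minus strand: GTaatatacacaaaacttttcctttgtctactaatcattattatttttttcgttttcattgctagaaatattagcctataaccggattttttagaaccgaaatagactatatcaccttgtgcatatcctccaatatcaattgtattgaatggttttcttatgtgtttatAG
DJ1A intron 6, chr3:5049079-5049193, plus strand: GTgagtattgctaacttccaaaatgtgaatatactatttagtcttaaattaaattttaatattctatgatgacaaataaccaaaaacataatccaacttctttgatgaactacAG
LHCB5 intron 3, chr4:6408698-6408795, plus strand: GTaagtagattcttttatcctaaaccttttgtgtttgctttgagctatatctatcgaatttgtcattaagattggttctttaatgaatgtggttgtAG
LpxC3 intron 2, chr1:8805001-8805187, plus strand (the same letters in LpxC4 and LpxC5): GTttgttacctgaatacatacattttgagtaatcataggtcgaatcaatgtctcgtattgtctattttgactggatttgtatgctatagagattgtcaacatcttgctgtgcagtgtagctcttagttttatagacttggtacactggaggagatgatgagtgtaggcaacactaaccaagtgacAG
OASA2 stretch of 28 bases, chr3:7964099-7964126, plus strand: GTgcttccgaaaagtttaaaagctctGT

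The gene counts behind the comparison totalled 23936296 and 30105517 in the mutant libraries and 23436163 and 24245300 in the wild-type libraries. MAC3B itself stood at 1147 and 946 CPM (counts scaled to the library total) in mutant libraries, against 156 and 162 CPM in wild-type libraries, which counts transgene and own gene together. Of the markers used to check the tissue, the leaf genes RBCS1A, LHCB1.1 and RCA stood at 5043 to 11812 CPM over the 4 libraries, and the flower genes AP3, AG and PI at 0 to 0.649 CPM. The seed storage genes CRC and SESA3 reached at most 0.834 CPM, and CRA1 reached 4.71 CPM. Of the 3 root markers 2 passed the test across all genes (edgeR's quasi-likelihood test, Benjamini-Hochberg adjusted p under 0.05): PRX72 stood at 68.6 and 72.0 CPM in mutant libraries, against 50.7 and 49.9 CPM in wild-type libraries, and CASP2 at 23.4 and 26.9 CPM, against 18.1 and 17.8 CPM. The third root marker, IRT1, did not pass (log2 fold change 0.002, edgeR adjusted p = 0.999). It stood at 5.428 and 23.43 CPM in mutant libraries, against 17.22 and 12.02 CPM in wild-type libraries. Its mutant values thus lay on both sides of the wild-type values. The part of these root marker differences in the results below was not tested. In whole seedlings a change in the number of cells of a type and a change in RNA per cell cannot be told apart.

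The score behaved as read depth per base multiplied by a factor for each column: score times length was a whole multiple of the factor for 99.9858% to 100% of introns above 0, within 0.02. The limit of 250 stood for a mean depth of 19.7 and 24.7 reads in the mutant columns and 19.4 and 20.0 reads in the wild-type columns. The 2 mutant and 2 wild-type score columns carry numbers of their own and are called column 1 and column 2 of each genotype. The members' median score was 582, against 28.6 in the 21851 other introns under 500 bases with a mean score of at least 10, which serve as the comparison set below.

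Most of the deeply covered introns had the ordinary build of Arabidopsis introns. In RefSeq, 543 of 590 interrupted coding sequence (92.0%, against 92.8% of the comparison set), 14 lay in 5′ UTRs, 14 in 3′ UTRs and 4 in noncoding transcripts, and 15 had no matching intron. GT and AG ends were carried by 568 members (96.3%, against 96.6%) and GC and AG ends by 8. The median length was 105 bases, against 99, and the median GC content 32.5%, against 32.8%. The reading frame ran through the intron without a stop in 62 of the 543 coding members (11.4%, against 9.89%), of which 7 also had a length that is a multiple of 3. None of these features separated the members clearly from the comparison set, and no test was made on them.

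Place in the gene differed more. Among the 575 members found in a RefSeq transcript, 158 (27.5%) were the first intron, against 17.5% of the comparison set. An only intron counted as first here. An intron that was the only 1 of its transcript made up 14.1% of the 575 members, against 4.88%. These 81 members are among the 158 first introns, so the 2 shares are not separate features. The median number of introns in the transcript was 5, against 7. Most host genes gave a single member (357 genes), 65 gave 2 and 26 gave 3 or more.

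The members ranged widely in how deep they were against their own exons. Intron depth was set against exon depth of the host gene, computed as count times 300 covered bases per pair over exon length. The median member reached 16.1% of exon depth, against 2.27% in the comparison set. Depth under 2% of the exons was found for 81 members, 2 to 10% for 152, 10 to 50% for 209, 50 to 150% for 112 and 150% or more for 36. Of these 36, only 29 lay in tested host genes. The rest lay in genes with too few exon counts to be tested, so their shares are not usable ratios. How exon reads were counted in the genes at 150% or more was not tested. A deep intron was thus in some genes a trace of a very abundant transcript and in others about as deep as the exons.

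**Figure D1:**
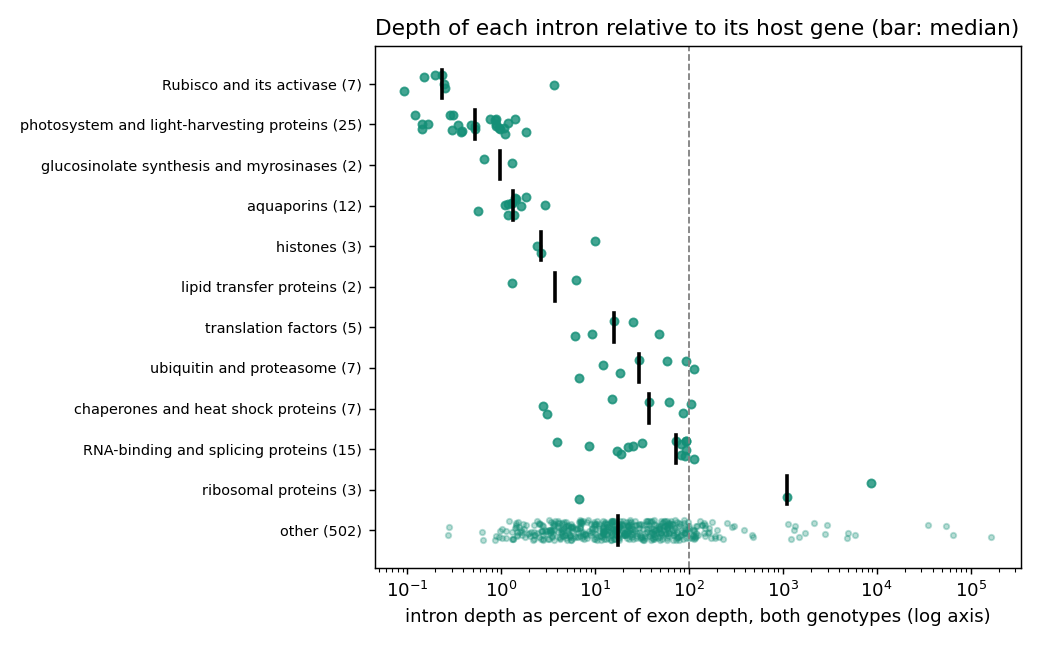
Each point is 1 deeply covered intron, placed on a log axis by its read depth as a percent of the exon depth of its host gene over both genotypes, in rows by host gene class with the number of introns in parentheses; black bars are medians and the dashed line marks 100%. Rubisco introns had a median of 0.238% and photosystem introns 0.532%, while introns of RNA-binding and splicing genes had a median of 74.0%; 1 intron whose host gene had a count of 0 in all libraries is not drawn.

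The deepest intron of all was that of EXT4, which encodes extensin, a cell wall glycoprotein. It is the first of 2 introns, 382 bases long, with a frame open to its end, and it scored 30081 and 31829 in the mutant columns, against 28682 and 31012 in the wild-type columns. The ranges overlapped, with a difference of 0.05 ± 0.05 (SE) on the log2(score + 1) scale. Its depth was 93.1% of exon depth in the mutant and 90.3% in wild type, so the EXT4 intron was read nearly as deeply as the exons in both genotypes.

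GRP7 and CCR1 encode closely related glycine-rich proteins that bind RNA, follow the circadian clock and are known to regulate splicing of their own transcripts through an alternative 5′ splice site in their single intron. The GRP7 intron of 309 bases scored 14065 and 17045 in the mutant columns, against 22534 and 24454 in the wild-type columns. Both mutant columns lay below both wild-type columns, by 1.52-fold, a log2 difference of -0.60 ± 0.09 (SE), with an unadjusted limma p of 0.000374 and an adjusted p of 0.797. The GRP7 gene fell, with 189 and 266 CPM in mutant libraries against 315 and 318 CPM in wild-type libraries (log2 fold change -0.47 ± 0.10, edgeR adjusted p = 0.0147). The gene's log2 fold change was -0.47 with DESeq2, which missed the threshold (DESeq2 adjusted p = 0.374). It was -0.48 without wild-type replicate 1 and -0.47 without wild-type replicate 2, and then also missed the threshold. The size depended on the mutant library, at -0.25 without mutant replicate 1 and -0.74 without mutant replicate 3. Leaving out a library leaves 1 in that genotype, which is assumed to vary like the pair of the other genotype; this holds for every such value below. The intron's deficit beyond that of the gene was -0.13 ± 0.14, within its error, and intron depth was 85.7% of exon depth in the mutant and 96.6% in wild type.

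The CCR1 intron of 283 bases had scores of 10383 and 12759 in the mutant columns, against 13143 and 14373 in the wild-type columns. These did not overlap either, at a log2 difference of -0.26 ± 0.10 (SE). The CCR1 gene did not pass the test, with 129 and 183 CPM in mutant libraries against 170 and 169 CPM in wild-type libraries. Its intron stood at 88.1% of exon depth in the mutant and 99.9% in wild type, and the difference of intron and gene, -0.14 ± 0.15, was again within its error.

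Other introns near the top came from genes with little described function. AT1G73885, annotated as an AT-rich interactive domain protein, gave 2 members: its 95-base intron scored 12793 and 13558 in the mutant columns, against 13717 and 13758 in the wild-type columns. Its 79-base intron scored 6271 and 7596 in the mutant columns, against 9515 and 8515 in the wild-type columns. The uncharacterised gene AT2G11225 gave 5 members, led by a stretch of 17 bases with scores of 10560 and 10874 in the mutant columns, against 11321 and 12228 in the wild-type columns. The log2 differences of these 3 introns were -0.06, -0.38 and -0.13, all with separate columns.

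AT1G24996 was the reverse of the abundant genes. Its only intron, 441 bases, scored 8064 and 9707 in the mutant columns, against 11205 and 10561 in the wild-type columns, while its exons were counted at 0 and 0.0329 CPM in mutant libraries and 0.0433 and 0.0417 CPM in wild-type libraries. All of these exon values lie under the floor of 3 counts, so that no exon ratio is given. On library totals without TMM that floor was 0.0996 to 0.128 CPM.

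AT4G36980, annotated as a CLK4-associating serine/arginine-rich protein, was the next deepest member of the RNA-binding and splicing class. Its 213-base intron, eighth of 11, scored 4432 and 5134 in the mutant columns, against 5219 and 5860 in the wild-type columns, and stood at 93.6% of exon depth in the mutant and 95.2% in wild type. Its 125-base and 138-base members reached only 17.0% and 10.4% of exon depth in the mutant, and 17.8% and 6.89% in wild type. Introns of the same transcript thus differed widely in depth.

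Genotypes were compared with limma on log2(score + 1), fitted to all 23795 introns with a mean score of at least 10. No intron of the table passed an adjusted p of 0.05 (0.0% of those tested), and none of the 590 members did. An unadjusted limma p under 0.05 was found for 55 members (9.32%, against 3.69% of all introns tested). Of these 22 were higher in the mutant (3.73% of members, against 2.27%) and 33 lower (5.59%, against 1.42%). The members' median SE was 0.32, against 2.23 in the comparison set, so the shares are not compared at like precision. With a pseudocount of 10 the same test called 2 members, the introns of AT2G15880 (adjusted p = 0.0012) and GRP7 (adjusted p = 0.000646). Testing only introns with a mean score of at least 250, a choice made after seeing the data, called the AT2G15880 intron alone among members (adjusted p = 0.0252).

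Members differed little between genotypes in size. Their log2 differences had a median of -0.02 and a standard deviation of 0.39, and ran from -1.15 to 1.58, with 466 of 590 under 0.5 in size. The rule holds that range down, since an intron that fell below 250 in either genotype could not be a member. Columns of the same genotype lay apart by a median of 0.30 in the mutant and 0.29 in wild type, while the genotype means differed by a median of 0.24. In the comparison set the same gaps were 1.80 and 1.57 between columns, and 1.46 between genotypes. A difference between means of 2 columns varies less than a gap between single columns, so these sizes are not a test.

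**Figure D2:**
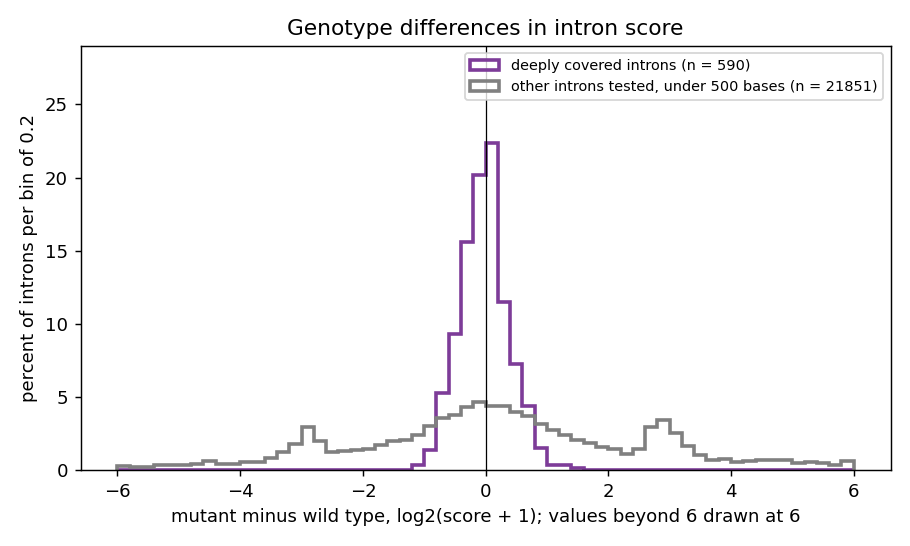
Percent of introns per bin of 0.2 of the mutant minus wild-type difference on the log2(score + 1) scale, for the 590 deeply covered introns (purple) and the 21851 other introns tested under 500 bases (grey); values beyond 6 are drawn at 6. The deeply covered introns form a narrow peak near 0 with a standard deviation of 0.39, against 2.35 for the other introns.

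Both mutant columns lay above both wild-type columns for 99 members (16.8%, against 17.1% of all introns tested) and below both for 126 members (21.4%, against 13.7%). This split depended on the scaling: the median log2 score of all introns tested was higher in the mutant columns, and centring each column on it shifted the members' differences by -0.24. Centred in that way, 41 members lay above and 247 below, against 14.2% and 21.4% of all introns tested. The 365 members left in the uncentred split had overlapping columns.

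The intron of AT2G15880, a leucine-rich repeat gene, had the lowest difference and the smallest p of the members. It scored 2013 and 2155 in the mutant columns, against 5025 and 4252 in the wild-type columns, so both mutant values lay below both wild-type values, by 2.22-fold on average. The log2 difference was -1.15 ± 0.13 (SE), with an adjusted limma p of 0.662 that ranged from 0.0012 to 0.792 over the alternatives. Its gene fell, with 78.7 and 80.0 CPM in mutant libraries against 150 and 160 CPM in wild-type libraries (log2 fold change -0.97 ± 0.08, edgeR adjusted p = 1.05e-07). The intron differed from its gene by -0.18 ± 0.15, and the intron stood at 77.3% of exon depth in the mutant and 90.2% in wild type.

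The next lowest introns had differences of -1.08 to -0.91, all with separate columns and none past the test. The intron in the 5′ UTR of AT3G02070, a cysteine proteinase family gene, scored 265 and 368 in the mutant columns, against 822 and 531 in the wild-type columns. The 377-base intron of AT1G22330, an RNA-binding family gene, scored 292 and 280 in the mutant columns, against 571 and 544 in the wild-type columns. The intron of LBD39, a LOB-domain regulator known to act in nitrogen responses, scored 489 and 408 in the mutant columns, against 915 and 787 in the wild-type columns. None of these 3 host genes passed the test, with gene log2 fold changes of -0.29, -0.20 and -0.13. The remaining 2 were introns of OEP16-1, a channel of the outer plastid envelope, and of the lipase gene GLIP3. OEP16-1 scored 328 and 505 in the mutant columns, against 677 and 922 in the wild-type columns, and its gene fell by 0.62 ± 0.14 on the log2 scale (edgeR adjusted p = 0.0146); without wild-type replicate 2 it was -0.39 and missed the threshold (adjusted p = 0.354). GLIP3 scored 261 and 491 in the mutant columns, against 567 and 798 in the wild-type columns.

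At the other end stood introns with separate columns that scored higher in the mutant, again none past the test. The 92-base intron of IAA2, an auxin-induced repressor of auxin response, scored 1503 and 792 in the mutant columns, against 536 and 324 in the wild-type columns, a log2 difference of 1.39 ± 0.40 (SE). The IAA2 gene did not pass the test, with 145 and 142 CPM in mutant libraries against 120.5 and 121 CPM in wild-type libraries. The intron of DJ1A, a relative of human DJ-1, scored 795 and 766 in the mutant columns, against 442 and 285 in the wild-type columns, a log2 difference of 1.14 ± 0.32, while its gene stood at -0.08 ± 0.07. A second DJ1A member, 166 bases long, scored 507 and 429 in the mutant columns, against 359 and 531 in the wild-type columns, and did not share this.

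RBCS1B, a small subunit of the carbon-fixing enzyme Rubisco, was a gene that rose while its intron scored higher. Its 171-base intron scored 769 and 782 in the mutant columns, against 350 and 256 in the wild-type columns, a log2 difference of 1.37 ± 0.31. The gene rose, with 405 and 356 CPM in mutant libraries against 252 and 210 CPM in wild-type libraries (log2 fold change 0.72 ± 0.09, edgeR adjusted p = 3.93e-05). RBCS1B has closely related neighbours in the same family, and how reads were divided among these copies was not tested. The 5′ UTR intron of AT5G54940, a SUI1 family translation initiation gene, scored 1404 and 1358 in the mutant columns, against 627 and 644 in the wild-type columns, 2.17-fold higher. The last intron of CAT3, a catalase that breaks down hydrogen peroxide, scored 778 and 720 in the mutant columns, against 501 and 303 in the wild-type columns.

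**Figure D3:**
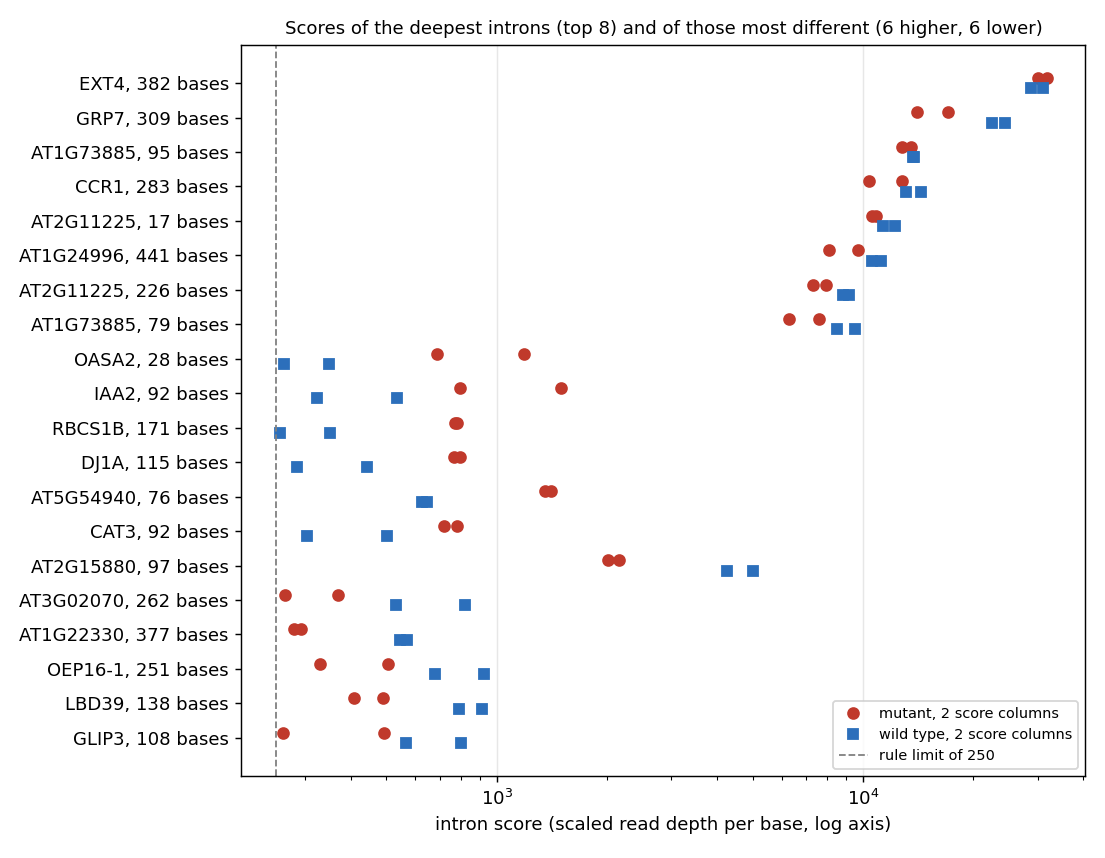
Score in each mutant column (red circles) and each wild-type column (blue squares) on a log axis for the 8 members with the highest mean score and for the 6 highest and 6 lowest mutant minus wild-type differences among members with separate columns; the dashed line is the rule's limit of 250. For AT2G15880 the mutant points at 2013 and 2155 lie left of the wild-type points at 5025 and 4252, and for IAA2 the mutant points at 1503 and 792 lie right of those of wild type at 536 and 324.

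Host genes were tested on counts, which the choice of members did not use directly. A read pair covered 300 bases and the median member was 105 bases long. The same pair may thus enter both an intron's score and its gene's count, and this overlap was not measured. Of the 448 host genes 441 were tested and 43 passed (9.75%, against 3.01% of the 20483 genes tested), 6 higher and 37 lower in the mutant (against 1.68% and 1.33% of all genes). Host genes were abundant, with a median of 79.9 CPM against 15.9 CPM for all genes tested. Among all 2438 genes at or above that host median 8.61% passed, 80 higher and 130 lower. The count changed with the libraries left out: without wild-type replicate 1 it was 11 and without wild-type replicate 2 it was 12, while it was 79 without mutant replicate 1 and 117 without mutant replicate 3. Under every one of these the lower host genes outnumbered the higher, and with library totals as the only scaling the split was 11 higher and 27 lower.

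The host genes that fell had varied roles. CCL, a gene of unknown function whose transcript follows the clock, gave 2 members and fell to 278 and 277 CPM in mutant libraries, against 433 and 467 CPM in wild-type libraries (log2 fold change -0.70, edgeR adjusted p = 3.94e-06). Its 85-base intron scored 1271 and 1403 in the mutant columns, against 2361 and 1969 in the wild-type columns. Its 83-base intron scored 1439 and 1463 in the mutant columns, against 2049 and 1802 in the wild-type columns, so both introns were lower in the mutant without overlap. Others that fell were PRR7, a clock repressor, with a log2 fold change of -0.44, BT2, a BTB-domain scaffold protein, with -0.53, and FNR2, a chloroplast ferredoxin reductase, with -0.48. Without wild-type replicate 1 these last 3 were at -0.44, -0.48 and -0.46 and missed the threshold.

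RPP4, a disease resistance receptor, carried 4 members at similar depth. Its gene fell to 89.4 and 85.2 CPM in mutant libraries, against 133 and 137 CPM in wild-type libraries (log2 fold change -0.63, edgeR adjusted p = 5.65e-05). The 4 introns differed by -0.48, -0.15, -0.20 and -0.60 on the log2 scale in transcript order and stood at 42.3% to 57.7% of exon depth in the mutant and 37.0% to 45.8% in wild type. The first and the last of the 4 introns had separate columns, and the middle pair overlapped.

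The 6 host genes that rose were RBCS1B, NIT1, AT1G55990, RD22, GSTF9 and ERD14. NIT1 encodes a nitrilase and stood at 498 and 498 CPM in mutant libraries, against 351 and 355 CPM in wild-type libraries (log2 fold change 0.50, edgeR adjusted p = 0.000195), and without wild-type replicate 1 its log2 fold change was 0.49 (adjusted p = 0.0579). The other 4 missed the threshold when either wild-type library was left out, at log2 fold changes of 0.38 and 0.39 for RD22, 0.24 and 0.30 for ERD14, 0.21 and 0.36 for GSTF9 and 0.55 and 0.40 for AT1G55990, against 0.38, 0.27, 0.29 and 0.47 with all libraries. AT1G55990 also missed it without mutant replicate 1 (0.30) and with DESeq2 (0.47). Its member, 86 bases long, scored 1114 and 1103 in the mutant columns, against 714 and 512 in the wild-type columns. All 6 members in these genes had a positive intron difference, 3 of them with separate columns. In the genes that fell, 37 of 56 members had a negative difference, 24 lay below with separate columns and 3 above. Among all members 48.0% had a positive difference, 16.8% lay above with separate columns and 21.4% below. Among all introns tested these shares were 53.3%, 17.1% and 13.7%. Scores and counts come from the same plants and may share read pairs, so agreement of their directions is not a separate result.

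Over the 583 members with a tested host gene, intron and gene differences had Pearson's r of 0.38 and Spearman's rho of 0.35. This is a description across introns, which share libraries and in part host genes. An intron and its gene may also share read pairs. For the comparison set r was 0.15.

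**Figure D4:**
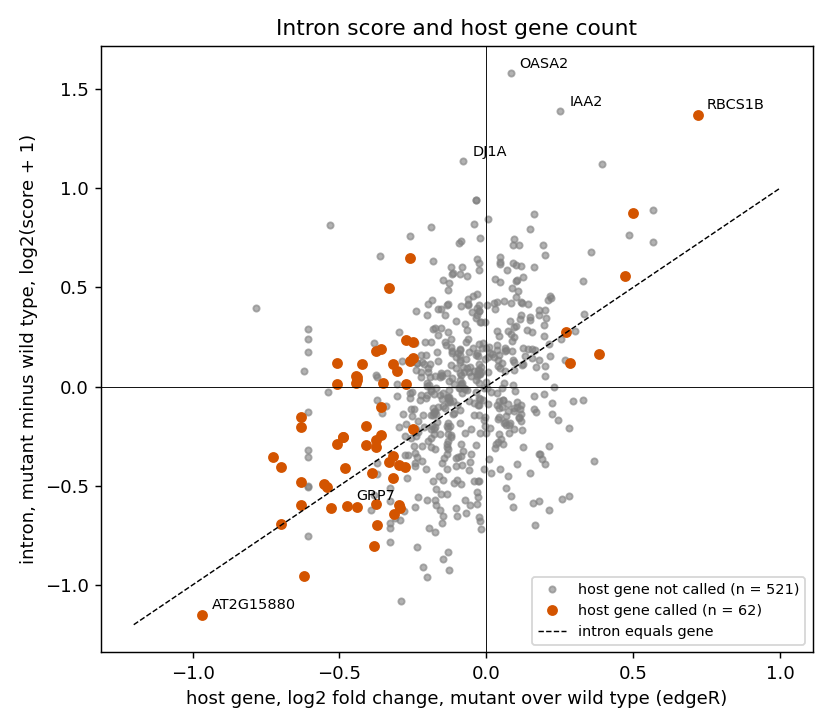
Each point is 1 deeply covered intron; the horizontal axis is the log2 fold change of its host gene (mutant over wild type, edgeR) and the vertical axis the intron difference (mutant minus wild type, log2(score + 1)), with orange points where the host gene passed the test and a dashed line where both are equal. AT2G15880 stands at the lower left (gene -0.97, intron -1.15), RBCS1B at the upper right (0.72 and 1.37), and OASA2, IAA2 and DJ1A lie high with gene changes of 0.08, 0.25 and -0.08.

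Before centring, the members' introns were slightly higher in the mutant when set against the host gene, with a lower median than all introns tested. The intron difference minus the gene's log2 fold change had a median of 0.08 and was positive for 349 of 583 members (59.9%), against a median of 0.15 and 54.0% over all introns tested with a tested gene. With library totals as the only scaling of the genes the members' median was 0.048, and with the score columns centred it was -0.16. The size and direction of this median thus depended on the scaling. The difference exceeded 2 times its standard error, taken as the root of the summed squares of both errors, for 37 members upward and 12 downward. Both errors come from the same plants, so the joined error is a description and not a test. The matching share over all introns and the split with centred columns were not taken, so no excess is read from these counts.

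The introns that were faint against their exons had the highest median of this measure. The grouping by exon share was chosen after the values were seen and is given without a test. Among members under 2% of exon depth the median was 0.24 and 60 of 81 were positive, and 21 lay above with separate columns and 8 below, beside 17.1% and 13.7% of all introns tested. From 2 to 10% the median was 0.08, with 95 of 152 positive. From 10 to 50% it was 0.05, with 113 of 209 positive, and from 50 to 150% it was 0.05, with 62 of 112 positive. At 150% or more it was 0.11, with 19 of 29 positive.

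When each score column was left out in turn, the median of the faintest group lay between 0.20 and 0.25, and that of the deepest group between 0.08 and 0.38. With centred columns the faintest group had a median of -0.00 with 40 of 81 positive and the deepest one of -0.13 with 13 of 29 positive, while the groups from 2 to 150% had medians of -0.16, -0.19 and -0.19. In the comparison set the same 5 groups had medians of 0.17, 0.18, 0.11, 0.04 and 0.42.

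**Figure D5:**
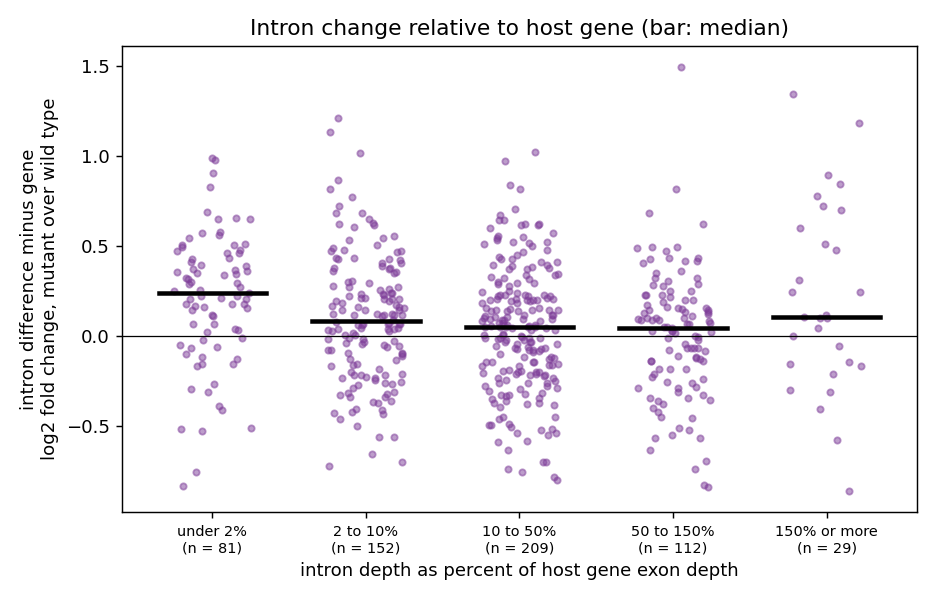
Each point is 1 deeply covered intron with a tested host gene, grouped by its depth as a percent of exon depth; the vertical axis is the intron difference minus the host gene's log2 fold change (mutant over wild type), and black bars are medians. The bar stands at 0.24 for introns under 2% of exon depth and at 0.08, 0.05, 0.05 and 0.11 in the groups to its right.

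The host gene classes filled different parts of this scale. Photosystem and light-harvesting genes, which encode the pigment-protein complexes of the chloroplast, held 25 members in 15 genes (4.24% of members, against 0.151% of the comparison set), at 0.122% to 1.85% of exon depth. All 15 genes had a negative log2 fold change, as had 294 of the 441 host genes tested, with a median of -0.21, against -0.07 over host genes. The test was passed by 3 of them, PSAF, LHCB4.1 and PSBQ-2, which fell, beside 37 lower calls among host genes and 1.33% among all genes. When either wild-type library was left out none of the 3 passed, at -0.30 and -0.26 for PSAF, -0.26 and -0.24 for LHCB4.1 and -0.28 and -0.23 for PSBQ-2, against -0.28, -0.25 and -0.25 with all libraries. LHCB4.1 and PSBQ-2 also missed the threshold with library totals (adjusted p = 0.0898 and 0.0955) and with a minimum of 1 CPM in 2 libraries (0.0535 and 0.0528). The negative direction of all 15 was kept under every alternative of the gene fit. PSBO1, a photosystem II protein whose annotation text left it outside the class, fell as well, with a log2 fold change of -0.26; it missed the threshold with library totals (-0.22) and without wild-type replicate 1 (-0.29) or 2 (-0.23). The introns had a median difference of 0.05, or -0.19 with centred columns, with 5 of 25 above and 3 below with separate columns, beside 17.1% and 13.7% of all introns tested. Set against the gene, 21 of 25 were positive with a median of 0.29, and with centred columns 15 of 25 with a median of 0.05.

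Within this class introns of 1 transcript went different ways. LHCB5, a minor antenna protein of photosystem II, stood at 5342 and 5469 CPM in mutant libraries, against 6119 and 6207 CPM in wild-type libraries, and gave all 5 of its introns. Intron 3, 98 bases, scored 643 and 716 in the mutant columns, against 371 and 408 in the wild-type columns, without overlap. Its deepest, intron 4, scored 3484 and 3182 in the mutant columns, against 3367 and 3400 in the wild-type columns, with overlap. The 5 differences were -0.30, 0.22, 0.80, -0.02 and -0.21 on the log2 scale in transcript order.

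LHCB2.1, a major antenna protein, had the largest excess over its gene, counted in standard errors, among the class. Its 85-base intron scored 3962 and 3342 in the mutant columns, against 2574 and 2496 in the wild-type columns, while its gene stood at 3577 and 4135 CPM in mutant libraries, against 4191 and 4242 CPM in wild-type libraries. The intron was 0.65 ± 0.15 above the gene on the log2 scale, and its depth was 1.42% of exon depth in the mutant and 0.942% in wild type. LHCB2.1 also has a close copy, and how reads were divided between them was not tested. The PSAF intron had separate columns in the direction of its gene, with scores of 2108 and 2042 in the mutant columns, against 2889 and 2610 in the wild-type columns.

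The Rubisco class held 7 members in 4 small-subunit genes, at 0.0932% to 3.72% of exon depth. All 7 introns had positive differences, with a median of 0.18, and all 7 stood above their gene, with a median of 0.30; with centred columns 2 of 7 differences were positive and 5 of 7 stood above the gene. RBCS3B fell, with 4468 and 4672 CPM in mutant libraries against 5539 and 5517 CPM in wild-type libraries (log2 fold change -0.27, edgeR adjusted p = 0.0193), and RBCS1B rose. RBCS3B was at -0.27 without wild-type replicate 1 and -0.28 without wild-type replicate 2, and then missed the threshold. The first RBCS1A intron, 106 bases, scored 835.5 and 881 in the mutant columns, against 656 and 509 in the wild-type columns.

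Aquaporins, the water channels of the plasma membrane and the vacuole, gave 12 members in 7 genes. None of the genes passed the test, and the genes' median log2 fold change was 0.05. The introns had a median difference of 0.29, or 0.05 with centred columns. Separate columns were found above for 5 of 12 and below for 0, beside 17.1% and 13.7% of all introns tested, and 10 of 12 stood above the gene; with centred columns 6 of 12 did. The aquaporin members named by mean score were introns of TIP2 and PIP2A, with differences of 0.17 and -0.10. The PIP1B introns of 80 and 225 bases, named after their values were seen, were among those that lay above. The shorter scored 927 and 1043 in the mutant columns, against 607 and 766 in the wild-type columns, and the longer scored 512 and 550 in the mutant columns, against 355 and 336 in the wild-type columns.

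The RNA-binding and splicing class held 15 members in 11 genes, at 3.98% to 115% of exon depth. Here 8 of 15 introns lay below with separate columns and 2 above, beside 13.7% and 17.1% of all introns tested, and the median difference was -0.21, or -0.45 with centred columns. A negative log2 fold change was found for 10 of the 11 genes, beside 294 of the 441 host genes tested, and among the 11 only GRP7 passed the test. Against the gene the median was 0.03 with 8 of 15 positive, and -0.21 with 4 of 15 with centred columns. AT5G51795, annotated as a Kin17-like nucleic acid binding protein, gave introns of 28 and 40 bases that were as deep as the exons, at 111% and 103% of exon depth in the mutant and 119% and 85.6% in wild type.

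The other classes were small. Chaperones and ubiquitin or proteasome genes gave 7 members each, translation factors 5 and lipid transfer and myrosinase genes 2 each; of the 3 members each under histones and ribosomal proteins, 1 of the histone class is a SET7/9 methyltransferase gene that matched by its name. No tubulin or actin intron was a member. AT4G30690, a translation initiation factor 3 gene, fell to 51.4 and 70.5 CPM in mutant libraries, against 84.0 and 89.8 CPM in wild-type libraries (log2 fold change -0.51, edgeR adjusted p = 0.0128). Without wild-type replicate 1 the AT4G30690 gene was at -0.56 and without wild-type replicate 2 at -0.46, and then missed the threshold. It was at -0.30 without mutant replicate 1 and -0.76 without mutant replicate 3. The deepest AT4G30690 intron, 104 bases, scored 1555 and 1514 in the mutant columns, against 1574 and 1466 in the wild-type columns, so that its share of exon depth was 30.3% in the mutant and 22.0% in wild type. TGG1, a myrosinase, fell as well (log2 fold change -0.33, edgeR adjusted p = 0.0387), and its 104-base and 83-base members differed by -0.38 and 0.50. The TGG1 gene missed the threshold with DESeq2 (-0.33), with library totals (-0.30) and without wild-type replicate 1 (-0.45) or 2 (-0.21).

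The introns lowest against their genes included those of CEL5, a cellulase, and GASA1, a gibberellin-regulated peptide gene. The second CEL5 intron scored 548 and 650 in the mutant columns, against 766 and 1106 in the wild-type columns, while the gene stood at 29.8 and 27.5 CPM in mutant libraries, against 26.1 and 23.4 CPM in wild-type libraries. This put it at 50.0% of exon depth in the mutant and 92.2% in wild type, -0.84 ± 0.30 against the gene. The other CEL5 member, 87 bases, scored 530 and 508 in the mutant columns, against 634 and 644 in the wild-type columns. The GASA1 intron rested on 1 column, with 324 and 375 in the mutant columns, against 314 and 832 in the wild-type columns, and without wild-type column 2 its difference was 0.15.

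Members that share their whole sequence with another intron of the table numbered 16 (2.71%, against 0.691% of the comparison set). The identical 187-base introns of LpxC3, LpxC4 and LpxC5, annotated as lipid A pathway deacetylases, had nearly the same scores. In the mutant columns these were 2123 and 2348 for LpxC3, 2107 and 2329 for LpxC4 and 2378 and 2251 for LpxC5. In the wild-type columns they were 2410 and 2294 for LpxC3, 2694 and 2470 for LpxC4 and 2650 and 2291 for LpxC5. The exons of these genes were counted at 0 to 0.197 CPM in mutant libraries and 0 to 0.0433 CPM in wild-type libraries, and no multiple-mapping option appears in the header of the counts. Reads of such copies cannot be told apart, so these values belong to the set and not to 1 gene.

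The identical 342-base introns of AT1G58684 and AT1G58983, ribosomal protein S5 family genes, scored 293 and 259 and 276 and 272 in the mutant columns, against 456 and 463 and 436 and 454 in the wild-type columns. Both were lower in the mutant without overlap, with differences of -0.74 and -0.70. Reads of these copies cannot be told apart either, so the 2 values are not separate results and belong to the pair. AT1G58983 was counted at 0.370 and 0.527 CPM in mutant libraries and 0.303 and 0.501 CPM in wild-type libraries. For AT1G58684 the counts were 0.0411 and 0.0658 CPM in mutant libraries and 0 and 0.125 CPM in wild-type libraries.

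Very short stretches were more common among members, with 24 under 60 bases (4.07%, against 1.41% of the comparison set) and 9 under 30. The 13 members without GT-AG, GC-AG or AT-AC ends included 11 with no matching intron in RefSeq. Among them was the 28-base stretch of OASA2, an O-acetylserine (thiol) lyase gene, which had the largest difference of all members. It scored 1190 and 687 in the mutant columns, against 349 and 262 in the wild-type columns, with a log2 difference of 1.58 ± 0.37, while the gene stood at 13.4 and 13.2 CPM in mutant libraries, against 12.6 and 12.6 CPM in wild-type libraries. The 21-base stretch in PBP1, a PYK10-binding protein gene, scored 2873 and 3025 in the mutant columns, against 1359 and 2048 in the wild-type columns. The ordinary 97-base intron of PBP1 scored 2311 and 3019 in the mutant columns, against 3321 and 4072 in the wild-type columns, so both stretches had separate columns in opposite directions. How reads of the flanking exons were placed at such short stretches was not tested.

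Of the host genes with many members, AT5G28320 gave 9 and AT5G28400 gave 6, both annotated as embryo defective proteins. The AT5G28320 introns differed by -0.75 to 0.29 on the log2 scale and stood at 86.4% to 302% of exon depth. Its gene rested on 1 library, with 10.4 and 9.35 CPM in mutant libraries, against 8.05 and 22.0 CPM in wild-type libraries. The AT5G28400 introns differed by -0.17 to 0.61 at 117% to 171% of exon depth.

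Just inside the score limit stood introns of OEP16-3, SCPL11 and LIG6, whose lowest columns were 250.5, 250.8 and 251.5. Just outside stood introns of AT1G55590, AT1G78000 and AT3G58940, at 248.6, 248.6 and 248.1. Just inside the length limit were introns of GulLO2, AT1G01490 and PRXR1 with 498, 494 and 485 bases, and just outside introns of AT1G75860, BTR1L and PIP2E with 500, 500 and 505 bases. None of the 79373 introns had the coordinates of any of the 4690 retained-intron events deposited beside them, so no second measure of the same introns was at hand.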

How the data were processed

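Sequencing libraries of polyA-selected RNA were made by the study from 4 seedling samples. The submitters' processing notes name TAIR10 as the genome, DESeq2 1.30.1, featureCounts 2.0.1, HISAT2 2.2.0 and STAR 2.7.9a, in no stated order. Per the file headers raw counts were made with featureCounts over exons of paired reads, with no multiple-mapping or strand option in the command, so antisense reads cannot be told apart; exon length per gene was deposited beside them. The intron score is a coverage signal that the authors deposited; how it was made is not given in the sources used here, and its values step by covered bases. The authors' retained-intron table, with p-values and an inclusion difference (a score), served only to match coordinates, and columns of other values in it were not tested.

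Counts were tested in R 4.3.3 with edgeR 4.0.16 (filterByExpr, TMM, glmQLFTest, genotype as the only term). Scores were tested with limma 3.58.1 on log2(score + 1), eBayes with trend, in introns with a mean score of at least 10, all 4 columns in the fit. Benjamini-Hochberg adjustment ran over the whole table, at 0.05. SE is that of each fit. Both fits were tested on simulated data. Alternatives were other pseudocounts, filters and scalings, DESeq2 1.42.0, other limits of the rule and leaving out each column or library. Summaries used Python 3.11.15 with pandas 2.3.3. With 20 reads a counting interval of 95% runs from 12.2 to 30.9; floors and intervals cover counting error only.

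Named introns were the 8 highest scores, the 6 highest and 6 lowest differences with separate columns, the 4 highest and 4 lowest differences from the gene, up to 2 per host gene class, those past the threshold and 3 on each side of each limit; others were named after their values were seen. The members, classes and lists were chosen with earlier results of these data known. Symbols and intron positions came from RefSeq. Score columns could not be tied to libraries by their names, and 4 deposited log2 columns were not used. The factors were 12.9 and 12.5 in wild-type columns 1 and 2 and 12.7 and 10.1 in mutant columns 1 and 2. Their falling order is the rising order of the totals of wild-type replicates 1 and 2 and mutant replicates 1 and 3, respectively. This match was not used, and introns and genes were compared only between genotypes.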

Additional observations from a re-analysis of the deposited data

How the results depend on the processing

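No paired analysis was made. The mutant replicates 1 and 3 and the wild-type replicates 1 and 2 share only 1 number, and the score columns are not named by library. The median log2 difference of the members, -0.02, became -0.26 with centred columns and ran from -0.04 to -0.00 as columns were left out in turn. The median against the gene, 0.08, became -0.16 with centred columns and 0.048 with library totals for the genes, and ran from 0.06 to 0.10 as columns were left out. Calls of members, 0, were 2 with a pseudocount of 10 and 1 at a mean score of at least 250. Calls over the table, 0, were 5 with a pseudocount of 10, 2 at a mean score of at least 50 and 4 at one of at least 250, and ran from 0 to 222 as columns were left out, all 222 without mutant column 1 and none a member. Genes called, 617, became 1090 without a filter and ran from 135 to 1848 as libraries were left out; host genes called, 43, became 68 and ran from 11 to 117. Each such fit has 1 library in a genotype, assumed to vary like the other pair; the cause was not tested. Other limits of the rule, members under 200 bases, members of at least 60 bases and members with a sequence found once (the last 2 chosen after seeing the data) left both medians within the spread of the columns, and no member had bases in an exon of the authors' annotation, though 8 overlapped an exon in RefSeq. Among 971 alternatives for 97 named introns and genes, 906 kept their side of the threshold, 14 lost a call, 28 gained one and 23 moved. A called direction was reversed in 0, which could only occur for genes, since no intron was called. Uncalled differences did not always keep their direction. The CCR1 gene, for example, was at -0.12 with all libraries and at 0.11 without mutant replicate 1. The count test on recovered reads was not run, because the score steps are covered bases and not reads. With 2 columns a genotype the members' median SE was 0.32 on the log2 scale, and in simulated data the intron fit missed most 2-fold changes of deeply covered introns, so a count of 0 calls does not show that introns were alike.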
